A study of Rattus norvegicus with 20 samples.

Results

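The 10 genes described here encode granule proteins, alarmins and a growth factor receptor of neutrophils, namely Pglyrp1, Retnlg, S100a8, S100a9, Lcn2, Mmp8, Mmp9, Ltf, Mpo and Csf3r. Each was taken from the deposited table by the probe sets annotated with that single symbol, and each had 1 such probe set, so that the group holds 10 of 28826 probe sets and 10 of the 14497 genes with a symbol of their own. RNA from blood cells of 20 male rats, aged 15 weeks, was measured with 1 array of the Rat Gene 1.0 ST type for each animal. There were 4 groups of 5 rats, which were WKY rats (WKY/NCrl) on CAF, WKY rats on STD, LEW rats (LEW/Crl) on CAF and LEW rats on STD. WKY and LEW are inbred strains, STD is a standard chow and CAF is a cafeteria diet of energy-dense human foods. The diets lasted 7 weeks and all rats were fasted for 9 hours before blood was taken. The labels call the cells PBMC, mononuclear cells of the blood, whereas the methods describe monocytes that adhered to plastic after a density gradient. The comparison of the strains asks how the circulating cells of WKY and LEW rats differ on the same diet, and the comparison of the diets asks how CAF changes them within a strain.

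Neutrophils are short-lived phagocytes that store antimicrobial proteins and proteases in granules. Granule proteins are made in sequence during maturation in the bone marrow, first those of the azurophil granules, such as myeloperoxidase, then those of the specific granules, such as lactoferrin, and last those of the gelatinase granules, so that mature cells in blood keep the early proteins but little of their mRNA. Alarmins are cell-derived proteins, such as S100A8 and S100A9, that alert other cells through receptors of innate immunity once they are released. S100a8, S100a9 and some others of these genes are also transcribed by monocytes, and a density gradient leaves most granulocytes out of the mononuclear layer.

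Promoter sequences are shown for 4 of these genes, Pglyrp1 and Retnlg because their strain differences were the largest of the 10, and Lcn2 and Mmp8 because their promoters held the letters of a C/EBP site. C/EBP factors and PU.1 are transcription factors that drive granulocyte and monocyte genes. Each sequence is the 250 bases before the transcription start in RefSeq, build GRCr8, read 5′ to 3′ on the gene's own strand, and capitals mark the matches of 4 motifs searched on both strands, which are TTGCNNAA for C/EBP, GAGGAA for PU.1, TGANTCA for AP-1 and TATAAA for the TATA box. The windows are chr1:87659613-87659862 (plus strand) for Pglyrp1, chr11:65395640-65395889 (minus strand) for Retnlg, chr3:36081781-36082030 (minus strand) for Lcn2 and chr8:13008640-13008889 (plus strand) for Mmp8.
Pglyrp1: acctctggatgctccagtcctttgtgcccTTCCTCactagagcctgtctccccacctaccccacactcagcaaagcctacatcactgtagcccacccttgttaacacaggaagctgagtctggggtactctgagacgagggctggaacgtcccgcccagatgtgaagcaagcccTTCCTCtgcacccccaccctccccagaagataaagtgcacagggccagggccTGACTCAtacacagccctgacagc
Retnlg: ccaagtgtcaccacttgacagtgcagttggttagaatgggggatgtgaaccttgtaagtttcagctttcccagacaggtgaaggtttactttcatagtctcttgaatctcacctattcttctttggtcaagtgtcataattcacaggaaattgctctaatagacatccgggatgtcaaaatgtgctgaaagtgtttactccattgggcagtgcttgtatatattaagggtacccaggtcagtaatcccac
Lcn2: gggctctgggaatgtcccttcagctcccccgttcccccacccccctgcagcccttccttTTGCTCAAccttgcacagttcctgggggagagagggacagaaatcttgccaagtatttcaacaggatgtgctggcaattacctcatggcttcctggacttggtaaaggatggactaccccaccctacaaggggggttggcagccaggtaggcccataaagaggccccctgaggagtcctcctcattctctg
Mmp8: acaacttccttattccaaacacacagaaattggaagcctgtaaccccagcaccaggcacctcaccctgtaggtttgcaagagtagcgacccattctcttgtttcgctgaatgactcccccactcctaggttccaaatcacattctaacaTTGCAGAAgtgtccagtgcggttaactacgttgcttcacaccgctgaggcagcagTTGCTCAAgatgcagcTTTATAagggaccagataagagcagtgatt

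RefSeq promoters were matched by symbol for 8 of the 10 genes, all but S100a8 and Mmp9. The C/EBP letters stood in 2 of the 8, those of Lcn2 and Mmp8, and in 9.22% of all 33469 promoters of the same length. In Mmp8 they stood at −101 to −94 and again at −46 to −39, counted from the start site, and in Lcn2 at −191 to −184. The PU.1 letters stood in 4 of the 8, those of Pglyrp1, S100a9, Mpo and Csf3r, against 23.3% of all promoters. Pglyrp1 held them at −221 to −216 and at −76 to −71, with the AP-1 letters at −24 to −18, which 6.34% of all promoters held and none of the other 7 did. TATAAA stood in S100a9 and Mmp8, and in 12.9% of all promoters. Retnlg and Ltf held none of the 4 motifs. No match overlapped another. The bearing of these letters on the strain differences was not tested.

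The deposited values are log2 signals, where 1 unit is a doubling, and array medians ran from 6.83 to 6.90 over the 20 rats. Markers of several blood cell types were measured on every array, with log2 signals of 12.21 to 13.06 for Cd14 of monocytes, 12.04 to 12.48 for Cd3e of T cells, 11.86 to 12.42 for Cd79b of B cells, 12.63 to 13.43 for Pf4 of platelets and 12.27 to 13.84 for the haemoglobin gene Hbb. Lower signals were those of Ncr1 of NK cells, at 6.84 to 8.84, and Prg2 of eosinophils, at 5.34 to 6.12. By the brighter markers the preparation was thus not of a single cell type, and in such bulk RNA more cells of a type and more RNA per cell cannot be told apart. On 4 arrays a list of 9 heat shock genes stood apart, at 1.12 above its mean over all rats in LEW CAF rat 2, 0.71 in WKY STD rat 1, 1.47 in LEW STD rat 2 and 0.77 in LEW STD rat 3, against −0.33 to −0.15 in the other 16 rats (means of centred log2 signals). The counts, differences and correlations of the 10 genes are given with these 4 arrays, and their counts, ranges or medians also without them. Since each rat gave its own array, the errors cover the variation among animals.

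In CAF-fed rats, 4 of the 10 genes were higher in WKY than in LEW rats and none was lower. These were the bactericidal protein gene Pglyrp1, at 4.22-fold, the resistin family gene Retnlg, at 3.82-fold, and the alarmin genes S100a8, at 2.61-fold, and S100a9, at 2.27-fold. On STD, 8 of the 10 were higher in WKY rats, the same 4 with Lcn2, Mmp8, Mmp9 and Csf3r, at 2.30-fold to 10.4-fold. Ltf and Mpo did not pass the test on either diet. The threshold was an adjusted p under 0.05 with limma, taken over all 28826 probe sets, of which 7.58% passed on CAF (4.24% higher and 3.34% lower in WKY rats) and 11.3% on STD (5.88% higher and 5.38% lower in WKY rats). Among the 14413 probe sets whose mean signal was at or above the median, tested on their own, 14.3% passed on CAF and 20.5% on STD. The median log2 difference of the 10 genes, WKY minus LEW, was 1.06 on CAF and 1.78 on STD, against −0.01 and −0.00 over all probe sets. Without the 4 arrays of high heat shock genes, 6 passed on CAF and 8 on STD, all higher in WKY rats, and the log2 differences of the 8 genes other than Ltf and Mpo were 0.86 to 2.27 on CAF and 1.59 to 3.95 on STD. This exclusion was chosen after seeing the data. It takes out WKY STD rat 1, at a mean of −0.98 from its group over the 8 genes, and LEW CAF rat 2, at 0.85. Leaving out such rats widens the strain differences by itself. On CAF the number passing also moved with single rats, to 2 without LEW CAF rat 1, 6 without WKY CAF rat 3 and 6 without LEW CAF rat 2, while it stayed at 8 on STD whichever rat was left out.

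**Figure D1:**
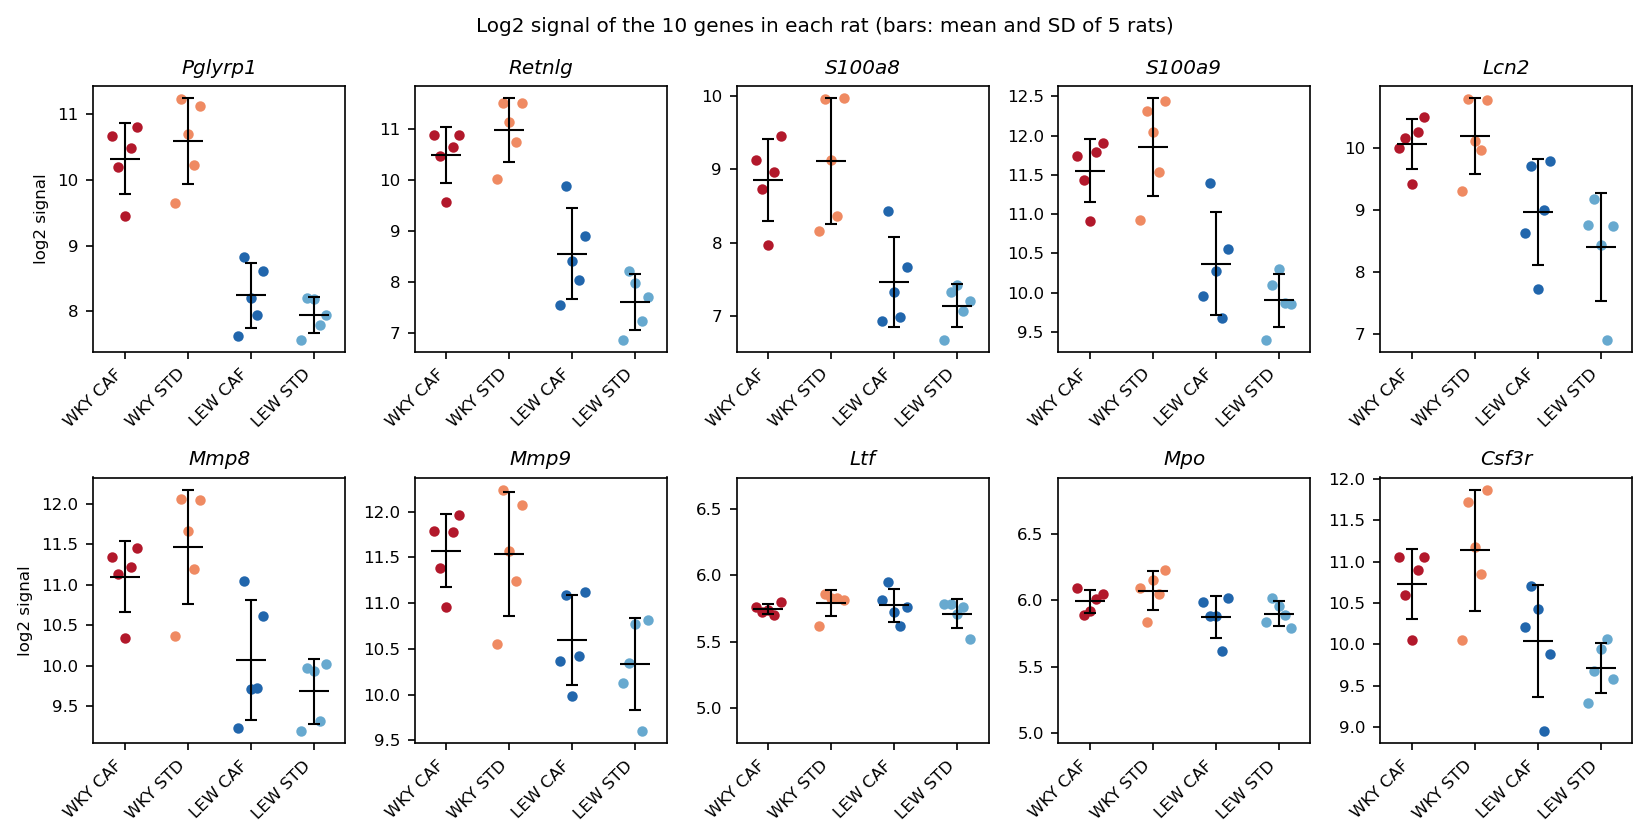
Log2 signal of each of the 10 genes in each of the 20 rats, with 1 point per rat, bars at the mean and SD of 5 rats, a panel per gene and a scale of its own in each panel. The points of the WKY groups lie above those of the LEW groups on both diets for Pglyrp1, on STD also for Retnlg, S100a8, S100a9, Lcn2 and Mmp8, and those of Ltf and Mpo overlap in every pair of groups.

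Pglyrp1 encodes peptidoglycan recognition protein 1, which is stored in neutrophil granules and kills bacteria through their cell wall. Its log2 signals were 10.67, 10.19, 9.45, 10.48 and 10.81 in WKY CAF rats and 9.65, 11.23, 10.70, 10.23 and 11.13 in WKY STD rats, against 7.62, 8.83, 8.20, 7.95 and 8.61 in LEW CAF rats and 7.57, 8.21, 8.19, 7.80 and 7.94 in LEW STD rats. Every WKY rat was above every LEW rat, across diets as well as within them. The log2 difference was 2.08 on CAF (SE 0.29, adjusted p = 6.64e-05) and 2.64 on STD (SE 0.29, adjusted p = 2.87e-06). Pglyrp1 was the 1 gene of the 10 whose strains did not overlap on CAF, where 4.16% of all probe sets had every WKY rat above every LEW rat and 3.64% every WKY rat below.

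Retnlg encodes resistin-like gamma, a secreted protein of the resistin family found in rodent neutrophils and bone marrow. It was at 10.88, 10.48, 9.57, 10.65 and 10.89 in WKY CAF rats and at 10.03, 11.51, 11.15, 10.74 and 11.51 in WKY STD rats, against 7.55, 9.89, 8.42, 8.04 and 8.90 in LEW CAF rats and 6.87, 8.21, 7.99, 7.24 and 7.70 in LEW STD rats. A single LEW rat, LEW CAF rat 2 at 9.89, reached the WKY range, above WKY CAF rat 3 at 9.57. The strains differed by 1.93 on CAF (SE 0.38, adjusted p = 0.00233) and by 3.38 on STD (SE 0.38, adjusted p = 3.85e-06), the largest difference of the 10 genes. Its neighbour on chromosome 11 among protein-coding genes, the related Retnla, was at a log2 difference of 0.16 on CAF (adjusted p = 0.248) and 0.12 on STD (adjusted p = 0.37).

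S100a8 and S100a9 encode the subunits of calprotectin, a calcium- and zinc-binding heterodimer of the cytosol that acts as an alarmin through TLR4 when released. S100a8 was at 9.13, 8.73, 7.97, 8.97 and 9.45 in WKY CAF rats and at 8.16, 9.96, 9.12, 8.36 and 9.97 in WKY STD rats, against 6.93, 8.43, 7.33, 6.99 and 7.67 in LEW CAF rats and 6.68, 7.33, 7.43, 7.07 and 7.20 in LEW STD rats. S100a9 was at 11.74, 11.43, 10.91, 11.79 and 11.90 in WKY CAF rats and at 10.92, 12.31, 12.05, 11.54 and 12.44 in WKY STD rats, against 9.96, 11.39, 10.27, 9.67 and 10.55 in LEW CAF rats and 9.40, 10.09, 10.30, 9.87 and 9.85 in LEW STD rats. On STD the strains were apart for both genes, and on CAF they overlapped through the same pair of rats, WKY CAF rat 3 on the low side and LEW CAF rat 2 on the high side. S100a8 differed by 1.38 on CAF (SE 0.35, adjusted p = 0.017) and by 1.97 on STD (SE 0.35, adjusted p = 0.000642). S100a9 differed by 1.18 on CAF (SE 0.30, adjusted p = 0.0172) and by 1.95 on STD (SE 0.30, adjusted p = 0.000152). On CAF the call of S100a8 ended without WKY CAF rat 5 (adjusted p = 0.0539) or LEW CAF rat 1 (adjusted p = 0.0516), and that of S100a9 without LEW CAF rat 1 (adjusted p = 0.0502) or LEW CAF rat 4 (adjusted p = 0.055).

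The pair lies side by side on chromosome 2, within a cluster of S100 genes. S100a7a, the next protein-coding gene on the side of S100a8, was at a log2 difference of 0.01 between the strains on CAF and 0.06 on STD. Of 12 other S100 genes none passed as higher in WKY rats, though 5 on CAF and 6 on STD had a positive difference. S100a11 was at 0.35 on STD (adjusted p = 0.0939). Those that passed as lower in WKY rats on both diets were S100a10, an annexin A2 partner, at −0.56 on CAF (adjusted p = 0.000192) and −0.55 on STD (adjusted p = 0.000187), and S100a1, a calcium sensor of muscle, at −0.24 (adjusted p = 0.0154) and −0.28 (adjusted p = 0.0046). That is 16.7% of the 12 on each diet, against 7.58% of all probe sets on CAF and 11.3% on STD.

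Lcn2 encodes neutrophil gelatinase-associated lipocalin, which withholds iron from bacteria by binding their siderophores. It was at 9.99, 10.15, 9.42, 10.26 and 10.49 in WKY CAF rats and at 9.31, 10.78, 10.11, 9.97 and 10.76 in WKY STD rats, against 8.62, 9.71, 7.72, 8.99 and 9.78 in LEW CAF rats and 8.75, 9.18, 8.43, 6.91 and 8.74 in LEW STD rats. The strains did not overlap on STD, where they differed by 1.78 (SE 0.41, adjusted p = 0.00583). On CAF they overlapped, and the difference of 1.10 did not pass the test (SE 0.41, 95% interval 0.25 to 1.95, adjusted p = 0.12). It passed with array weights (adjusted p = 0.0152) and with the replicate number as a block (adjusted p = 0.0449). The SD was larger in LEW rats here, at 0.40 in WKY CAF rats and 0.61 in WKY STD rats, against 0.85 in LEW CAF rats and 0.87 in LEW STD rats (n = 5 each). In LEW STD rats, rat 4 at 6.91 lay below the others at 8.43 to 9.18, and the spread was not tested.

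Mmp8 and Mmp9 encode the collagenase and the gelatinase that neutrophils release to cut extracellular matrix. Mmp8 was at 11.35, 11.14, 10.34, 11.22 and 11.45 in WKY CAF rats and at 10.37, 12.06, 11.67, 11.20 and 12.05 in WKY STD rats, against 9.23, 11.05, 9.71, 9.73 and 10.62 in LEW CAF rats and 9.19, 9.97, 9.93, 9.31 and 10.02 in LEW STD rats. Mmp9 was at 11.79, 11.38, 10.96, 11.78 and 11.96 in WKY CAF rats and at 10.55, 12.24, 11.57, 11.24 and 12.07 in WKY STD rats, against 10.37, 11.09, 9.98, 10.42 and 11.12 in LEW CAF rats and 10.13, 10.35, 10.77, 9.60 and 10.82 in LEW STD rats. On STD the strains were apart for Mmp8 and overlapped for Mmp9 through WKY STD rat 1, and on CAF they overlapped for both. On STD the differences were 1.78 for Mmp8 (SE 0.34, adjusted p = 0.00128) and 1.20 for Mmp9 (SE 0.30, adjusted p = 0.0122). On CAF they were 1.03 for Mmp8 (95% interval 0.32 to 1.74, adjusted p = 0.0739) and 0.98 for Mmp9 (95% interval 0.35 to 1.61, adjusted p = 0.054), just short of the threshold. Both passed on CAF without WKY CAF rat 3, and both without LEW CAF rat 2.

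Csf3r encodes the receptor of granulocyte colony-stimulating factor, which drives neutrophil production and is also carried by monocytes. It was at 11.06, 10.59, 10.05, 10.90 and 11.05 in WKY CAF rats and at 10.05, 11.72, 11.18, 10.85 and 11.87 in WKY STD rats, against 10.21, 10.71, 10.43, 8.95 and 9.88 in LEW CAF rats and 9.29, 9.68, 9.94, 10.06 and 9.58 in LEW STD rats. On STD a single WKY rat, rat 1 at 10.05, fell into the LEW range, and the strains differed by 1.42 (SE 0.32, adjusted p = 0.00556). On CAF the difference was 0.70 (SE 0.32, adjusted p = 0.25), the smallest of the 8 genes that passed on STD, and it was 0.42 without LEW CAF rat 4.

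Ltf encodes lactoferrin, the iron-binding protein of specific granules, and Mpo encodes myeloperoxidase, which makes hypochlorous acid and fills the azurophil granules. Their signals lay under the median of the array on all 20 arrays, from 5.52 to 5.95 for Ltf and from 5.62 to 6.23 for Mpo. Between the strains Ltf differed by −0.03 on CAF (95% interval −0.16 to 0.10) and by 0.08 on STD (95% interval −0.05 to 0.21), and Mpo by 0.11 (95% interval −0.05 to 0.27) and 0.17 (95% interval 0.02 to 0.33). None of these passed (adjusted p = 0.881, 0.483, 0.491 and 0.168), and differences at such low signals are less visible on an array. By the groups that did not overlap, 6 of the 10 genes had every WKY rat above every LEW rat on STD, namely Pglyrp1, Retnlg, S100a8, S100a9, Lcn2 and Mmp8, against 4.37% of all probe sets, and none had every WKY rat below, against 4.09%.

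**Figure D2:**
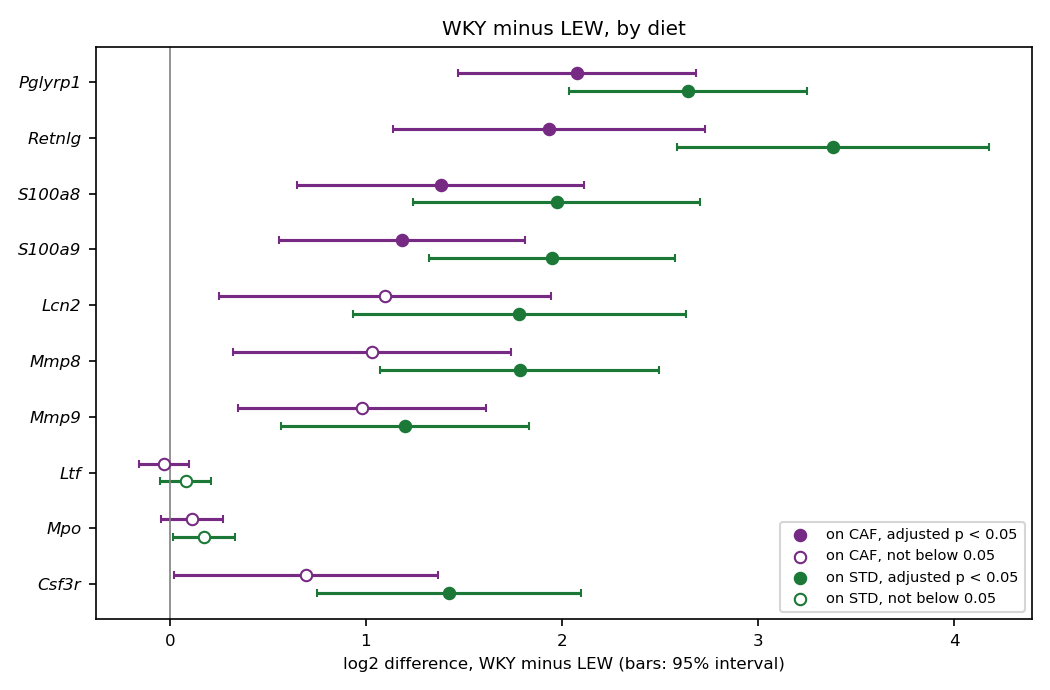
Log2 difference, WKY minus LEW, of each gene on CAF and on STD, with points at the estimate, bars over the 95% interval and filled points at an adjusted p under 0.05 from limma. Filled points number 4 on CAF and 8 on STD, and the intervals of Ltf lie around 0 on both diets.

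The diets changed none of the 10 genes beyond the test in either strain. In WKY rats, 9 of the 10 had a lower mean on CAF than on STD, and in LEW rats 9 of the 10 had a higher mean on CAF. Most of the genes varied together among the rats of a group, so these counts are not of separate observations. With limma, no gene reached an adjusted p under 0.05 in either strain, as was so for all 28826 probe sets (0% in both strains). At an unadjusted P under 0.05, none of the 10 stood out in WKY rats, where 8.81% of all probe sets did, and 1 did in LEW rats, where 5.46% of all probe sets did. The other fits tried called none of the 10 for either diet comparison. The median log2 difference of the 10 genes, CAF minus STD, was −0.26 in WKY rats and 0.33 in LEW rats, against −0.01 and −0.00 over all probe sets. CAF-fed and STD-fed rats overlapped for every one of the 10 genes in both strains, while of all probe sets 1.11% had every CAF-fed rat above and 0.961% below in WKY rats, and 0.399% above and 0.59% below in LEW rats.

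Retnlg was the gene that reached an unadjusted P under 0.05 in LEW rats. Its log2 signal averaged 8.56 ± 0.89 in LEW CAF rats and 7.60 ± 0.55 in LEW STD rats (SD, n = 5 each), a difference of 0.96 (95% interval 0.16 to 1.75, unadjusted P = 0.0209, adjusted p = 0.884). LEW CAF rat 2, one of the arrays of high heat shock genes, held the highest value at 9.89, and the difference was 0.62 without that rat and 0.96 without all 4 arrays of high heat shock genes. In WKY rats the mean was 10.49 ± 0.54 on CAF and 10.99 ± 0.62 on STD, a difference of −0.49 (95% interval −1.29 to 0.30, adjusted p = 0.761), which was −0.26 without WKY CAF rat 3 and −0.73 without WKY STD rat 1. Without the 4 arrays all 10 genes had a lower mean on CAF in WKY rats, with a median difference of −0.50, and all 10 a higher mean on CAF in LEW rats, with a median of 0.30, and none passed. The intervals left room for sizeable diet effects in the other genes as well. For S100a9 the interval ran from −0.93 to 0.33 in WKY rats and from −0.16 to 1.10 in LEW rats, and for Mmp9 from −0.59 to 0.67 and from −0.37 to 0.89.

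Whether the diet effect differed between the strains was tested by the interaction, taken as the effect of CAF in WKY rats less its effect in LEW rats. It was negative for all 10 genes, with a median of −0.64 against −0.00 over all probe sets, and with limma none reached an adjusted p under 0.05 (0% of all probe sets did). Retnlg had the largest at −1.45 (95% interval −2.58 to −0.32, unadjusted P = 0.0143, adjusted p = 0.8), and it was the 1 gene of the 10 at an unadjusted P under 0.05, where 5.95% of all probe sets lay. S100a9 followed at −0.77, Mmp8 at −0.75 and Csf3r at −0.73. No other fit called any of the 10, and without the 4 arrays of high heat shock genes the median was −0.86. The genes varied together among the rats of a group, with a median correlation of 0.831 over pairs of 8 of them, so the shared sign is not 10 separate observations. The interaction was also negative for all 14 other specific and gelatinase granule genes, 10 regulators of granulocyte production and 11 immediate early genes measured. It was positive for all 6 platelet and 7 B cell markers. The strain differences on the 2 diets and the interaction are made from the same 20 rats and are not separate evidence.

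**Figure D3:**
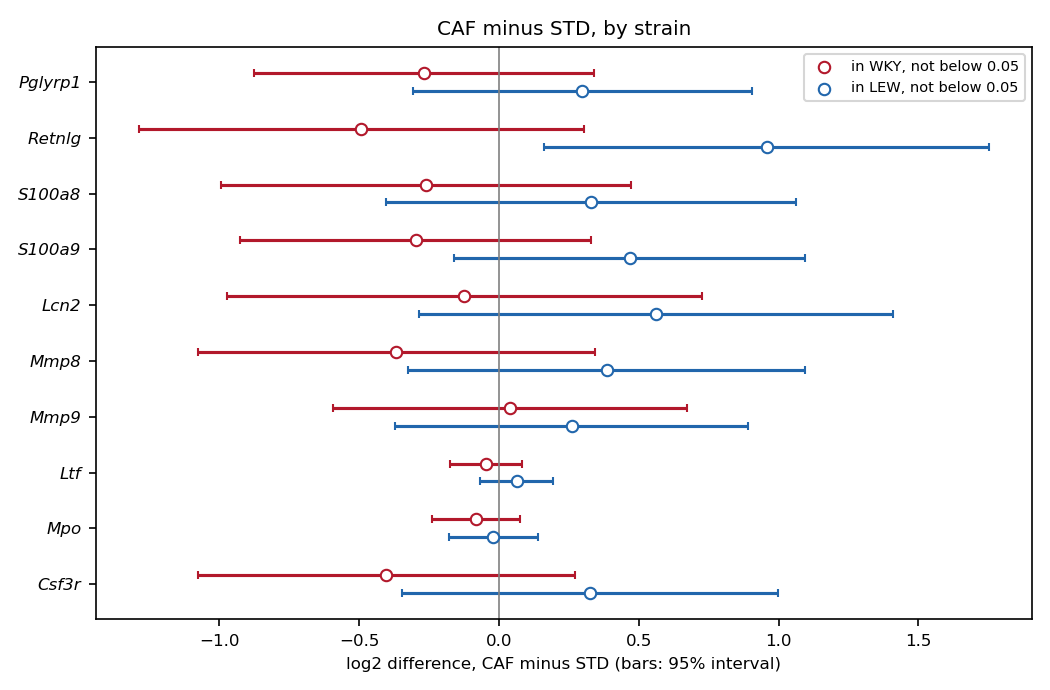
Log2 difference, CAF minus STD, of each gene in WKY and in LEW rats, with points at the estimate and bars over the 95% interval. All points are open because none reached an adjusted p under 0.05, and 9 of the 10 estimates are below 0 in WKY rats while 9 of the 10 are above 0 in LEW rats.

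In 7 of the 10 genes the group means ran in the same order, highest in WKY STD rats, then WKY CAF, LEW CAF and LEW STD rats. S100a9, for example, averaged 11.55 ± 0.40 in WKY CAF and 11.85 ± 0.63 in WKY STD rats, against 10.37 ± 0.66 in LEW CAF and 9.90 ± 0.34 in LEW STD rats (SD, n = 5 each). Mmp8 averaged 11.10 ± 0.44 in WKY CAF and 11.47 ± 0.71 in WKY STD rats, against 10.07 ± 0.74 in LEW CAF and 9.68 ± 0.40 in LEW STD rats. The neighbours within a strain did not differ by the test for any gene, and the middle neighbours, WKY CAF and LEW CAF, differed for Pglyrp1, Retnlg, S100a8 and S100a9. The exceptions to the order were Mmp9, with WKY CAF rats at 11.57 ± 0.40 beside WKY STD rats at 11.53 ± 0.68, and the low-signal genes Ltf and Mpo.

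Within a group, the rats differed together across the 8 genes other than Ltf and Mpo, a split made after the values were seen. WKY CAF rat 3 was the lowest of its group for 8 of the 8, at a mean deviation of −0.75 from the group mean, and WKY STD rat 1 was the lowest of its group for 8 of the 8, at −0.98. LEW CAF rat 2 was the highest of its group for 6 of the 8, at 0.85. WKY STD rats 2 and 5 were each 0.62 above their group. The arrays of WKY STD rat 1 and LEW CAF rat 2 were among the 4 with high heat shock genes, and WKY CAF rat 3 was at −0.26 on the heat shock list. WKY CAF rat 3 had the lowest summed signals of its group for monocyte markers, at 15.03, erythroid markers, at 13.20, and B cell markers, at 13.08 (log2 of the sum). Its NK cell markers were the highest of the group, at 14.39, and its T cell markers shared the highest sum, at 15.00, with rat 1. The part of these markers and of the heat shock genes in the neutrophil genes was not tested.

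As a description over the 20 rats, with each value taken as its deviation from the group mean, the 28 pairs of these 8 genes had Pearson correlations of 0.223 to 0.96, with a median of 0.831, and of −0.105 to 0.961, with a median of 0.748, over the 16 rats without the 4 arrays of high heat shock genes. The points share an array and its normalisation, so that array quality enters all of them. S100a8 and S100a9, whose proteins pair, had r = 0.945 and Spearman's rho = 0.946, with r = 0.927 over 18 rats. These 18 leave out the 2 rats farthest from the median for the first-named gene of a pair. Pglyrp1 and S100a8 had the highest, at r = 0.96 and rho = 0.97, with r = 0.95 over the 18 rats. Lcn2 and Csf3r had the lowest, at r = 0.223 and rho = 0.18. It was r = 0.589 over the 18 rats left by the extremes of Lcn2, so that the value varied with the rats included. The 17 pairs that included Ltf or Mpo ran from 0.0809 to 0.606, with a median of 0.321.

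**Figure D4:**
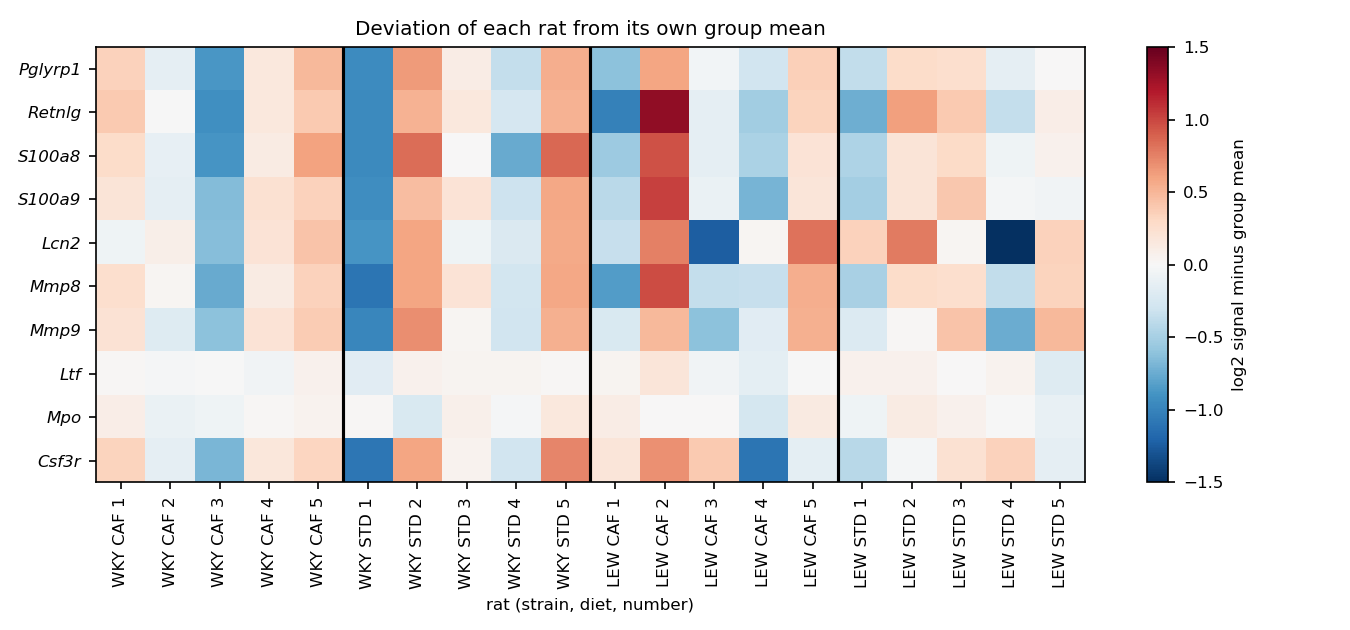
Deviation of each rat from its own group mean for each gene, on the log2 scale, with a column per rat, a row per gene, red above and blue below the group mean. The columns of WKY CAF rat 3 and WKY STD rat 1 are blue in the 8 genes other than Ltf and Mpo, at mean deviations of −0.75 and −0.98, and that of LEW CAF rat 2 is red in these 8, at 0.85.

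The genes most like the mean of the 10, among 14487 other genes over the 20 arrays, were Fpr1, Dgat2, Upp1, Csf1 and Steap4, at Pearson correlations of 0.983, 0.98, 0.974, 0.973 and 0.969. These correlations include the strain difference. With each value taken as its deviation from the group mean they were Fpr1, Dgat2, Steap4, Ralgds and Il1r2, at 0.965, 0.939, 0.929, 0.925 and 0.922. Fpr1 encodes the receptor of bacterial formyl peptides, and Il1r2 the decoy receptor of interleukin 1. Dgat2 encodes an enzyme of triglyceride synthesis, Csf1 the macrophage growth factor M-CSF, Upp1 uridine phosphorylase, Steap4 a metalloreductase and Ralgds an exchange factor for Ral GTPases. Csf1 was higher in WKY rats by 1.68 on CAF (adjusted p = 0.0116) and by 2.90 on STD (adjusted p = 5.32e-05), and Dgat2 by 1.49 on CAF (adjusted p = 0.00854) and by 2.10 on STD (adjusted p = 0.00028). Upp1 also passed on CAF, at 1.16 (adjusted p = 0.000457). Fpr1, Steap4, Ralgds and Il1r2 did not pass on CAF (adjusted p = 0.0543, 0.0915, 0.183 and 0.428). Likeness over the values already holds the strain difference, so the strain tests of genes picked by it are not separate evidence.

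Other neutrophil and alarmin genes were taken from 8 lists. Of 101 listed genes, 83 were measured, and in WKY against LEW rats 7 were higher and 4 lower on CAF (72 did not pass), and 17 were higher and 3 lower on STD (63 did not pass). That is 13.3% on CAF, against 7.58% of all probe sets, and 24.1% on STD, against 11.3%, with 13 and 23 genes passing without the 4 arrays of high heat shock genes. The shares of all probe sets include many dim ones. With probe sets under the median level left out they were 14.3% on CAF and 20.5% on STD, near those of the 83 genes. Both kinds of share bear on the single lists that follow. The median log2 difference of the 83 genes was 0.03 on CAF and 0.13 on STD. None passed for the diets or the interaction with limma or in any other fit, while at an unadjusted P under 0.05 there were 15 for the diet in WKY rats (18.1%, against 8.81% of all probe sets), 2 for the diet in LEW rats (2.41%, against 5.46%) and 8 for the interaction (9.64%, against 5.95%). By the smallest P, the genes nearest to passing were, in WKY rats, Itgam, the integrin chain CD11b, at a log2 difference of −0.50 for CAF minus STD (adjusted p = 0.243), and in LEW rats Ceacam1, an adhesion molecule, at 0.34 (adjusted p = 0.884).

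Other granule genes were set against the same shares of all probe sets. Of 8 measured azurophil granule genes, none passed on CAF and 1 was higher in WKY rats on STD, Srgn, at 0.28 (adjusted p = 0.00242), which encodes the serglycin proteoglycan that packs granule proteins and is made by many blood cells. The 8 ran from −0.06 to 0.13 on CAF and from −0.07 to 0.38 on STD. Of 14 other genes of specific and gelatinase granules, none was higher and 1 was lower in WKY rats on CAF, and 2 were higher and 1 lower on STD. The azurophil list thus had 0% of its genes called on CAF and 12.5% on STD, and the list of specific and gelatinase granules 7.14% and 21.4%, against 7.58% and 11.3% of all probe sets. Camp, the precursor of the antimicrobial peptide cathelicidin, was higher by 1.51 on STD (adjusted p = 0.000989) and at 0.78 on CAF (adjusted p = 0.105), and Itgam was higher by 0.48 on STD (adjusted p = 0.0225). Arg1, arginase 1, was lower in WKY rats at −0.58 on CAF (adjusted p = 0.00176) and −0.36 on STD (adjusted p = 0.0406). Of 8 inhibitors of granule proteases, Timp3, a tissue inhibitor of metalloproteinases, was lower in WKY rats on CAF at −0.70 (adjusted p = 0.02) and at −0.57 on STD (adjusted p = 0.0511), and none of the others passed. Of 11 relatives of the 10 genes, Mmp12, the macrophage elastase, was higher by 0.99 on CAF (adjusted p = 0.0146) and by 1.21 on STD (adjusted p = 0.00224), and the other 10 did not pass.

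Surface receptors of neutrophils, several of them shared with monocytes and NK cells, had a larger share called than the 2 lists of granule genes. Of 12 measured, 2 were higher in WKY rats on CAF (16.7%, against 7.58% of all probe sets) and 7 on STD (58.3%, against 11.3%), with none lower. Fcgr3a, an Fc receptor for IgG that NK cells and monocytes also carry, was higher by 1.40 on CAF (adjusted p = 0.000119) and 1.39 on STD (adjusted p = 0.000106). Cxcr2, the receptor for neutrophil-attracting chemokines, was higher by 1.22 on CAF (adjusted p = 0.0477) and 1.92 on STD (adjusted p = 0.00139). Fpr1 was higher by 1.94 on STD (adjusted p = 0.000809) and at 1.14 on CAF (adjusted p = 0.0543).

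Among 10 regulators of granulocyte production, Csf2, the growth factor GM-CSF, was higher in WKY rats by 0.43 on CAF (adjusted p = 0.00942) and by 0.60 on STD (adjusted p = 0.000386). Gfi1, a repressor needed for neutrophil maturation in mice, was higher by 0.68 on STD (adjusted p = 0.00769), and no regulator passed as lower on either diet. The share of regulators called was 10% on CAF and 20% on STD, against 7.58% and 11.3% of all probe sets. Of 8 other alarmins and alarmin receptors, 3 were higher on CAF (37.5%) and 4 on STD (50%), with none lower. Il1rl1, the receptor of interleukin 33, was higher by 0.95 on CAF (adjusted p = 0.000304) and 1.30 on STD (adjusted p = 6.09e-06). Il1b was higher by 0.41 (adjusted p = 0.0042) and 0.45 (adjusted p = 0.00153), Il1a, which dying cells release as an alarmin, by 1.23 on CAF (adjusted p = 0.0222) and 1.24 on STD (adjusted p = 0.0159), and Tlr2, a receptor of bacterial lipoproteins, by 0.61 on STD (adjusted p = 0.0034).

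**Figure D5:**
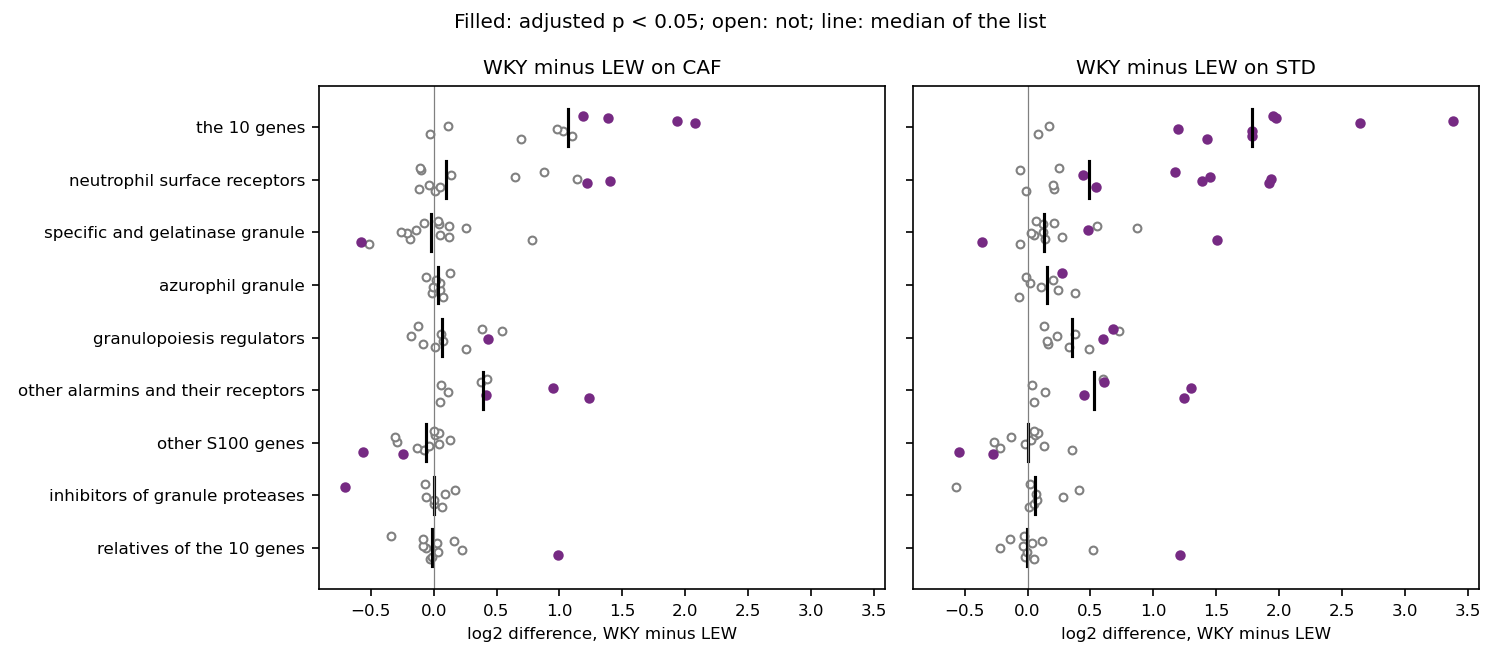
Log2 difference, WKY minus LEW, of every measured gene of each list on CAF and on STD, with 1 point per gene, filled at an adjusted p under 0.05 with limma, and a line at the median of the list. The 10 neutrophil granule and alarmin genes have 4 filled points on CAF and 8 on STD, with medians of 1.06 and 1.78, and the azurophil granule list of 8 genes has none and 1.

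Markers of other blood cells differed between the same groups, and their part in the strain differences was not tested. Of 14 monocyte markers, 5 were lower in WKY rats on CAF with none higher, and 6 were lower and 1 higher on STD. Their summed log2 signal was 15.03 to 15.40 in WKY CAF rats against 15.61 to 15.84 in LEW CAF rats, and 15.18 to 15.47 in WKY STD rats against 15.61 to 15.78 in LEW STD rats. The sum was thus lower in the strain with the higher neutrophil genes, but not every marker was. On CAF all 14 differences were negative, and on STD 10 were negative and 4 positive. Cd14 was at −0.16 on CAF (adjusted p = 0.544) and −0.02 on STD (adjusted p = 0.944). Of 10 NK cell markers, 8 were higher and 1 lower in WKY rats on CAF, and 9 higher and 1 lower on STD, with summed signals of 14.21 to 14.39 in WKY CAF rats against 13.38 to 13.81 in LEW CAF rats and 14.29 to 14.60 in WKY STD rats against 13.48 to 13.90 in LEW STD rats. Immediate early genes, whose mRNA appears soon after a cell is stimulated, were higher in WKY rats for 4 of 11 on CAF and 9 of 11 on STD. Of 14 T cell markers, 2 were lower in WKY rats on CAF and 6 on STD. Erythroid markers were higher for 1 and lower for 3 of 11 on CAF, with summed signals of 13.20 to 14.12 in WKY CAF rats and 14.02 to 14.76 in LEW CAF rats, and higher for 1 and lower for 2 on STD. Of all probe sets, 7.58% passed on CAF and 11.3% on STD, and with dim probe sets left out 14.3% and 20.5%. The shares on CAF were 35.7% of monocyte, 90% of NK cell, 36.4% of immediate early, 14.3% of T cell and 36.4% of erythroid genes. On STD they were 50%, 100%, 81.8%, 42.9% and 27.3%, in the same order.

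Markers of other granulocytes varied in signal. Prg2, the major basic protein of eosinophils, lay at 5.34 to 6.12 over the 20 arrays, under the median of every array. Hdc, the histamine-making enzyme of basophils and mast cells, named after its values were seen, averaged 8.37 in WKY CAF rats against 7.46 in LEW CAF rats, a log2 difference of 0.91 (adjusted p = 0.057), and 8.78 in WKY STD rats against 7.25 in LEW STD rats, a difference of 1.53 (adjusted p = 0.000972) with the strains apart. Mcpt8 and Cpa3 of the same list, also named after their values were seen, went opposite ways at low signals. Mcpt8 was higher in WKY rats by 0.40 on CAF (adjusted p = 0.00865) and by 0.38 on STD (adjusted p = 0.00929). Cpa3 was lower, at −0.32 on CAF (adjusted p = 0.00912) and −0.34 on STD (adjusted p = 0.00436). Of 13 markers of eosinophils, basophils and mast cells 1 was higher and 1 lower in WKY rats on CAF (15.4%, against 7.58% of all probe sets), and 3 were higher and 1 lower on STD (30.8%, against 11.3%). Their summed signals were 10.17 to 10.54 in WKY CAF rats and 10.05 to 10.32 in LEW CAF rats, and 10.16 to 10.87 in WKY STD rats and 10.06 to 10.30 in LEW STD rats. Platelet markers showed no call among 6 on CAF (0%) and 2 lower in WKY rats on STD (33.3%), and B cell markers 1 higher and 1 lower of 7 on each diet (28.6%).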

How the data were processed

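RNA from blood cells of 20 male rats was measured on 1 Rat Gene 1.0 ST array per rat, and the group of each array came from its label. The authors deposited 1 table of log2 signals per probe set, normalised between arrays, by RMA according to the methods and by MAS5, without a version, according to the submitters' processing notes. The build behind the probe sets is not given in the sources used here. The values were used as deposited, unfiltered and with every array kept. Identical arrays were looked for and none was found. Gene names came from the platform annotation, in which 15209 probe sets have 1 symbol, 306 have several and 13311 are not listed and unnamed here.

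Tests were run in R 4.3.3 using limma 3.58.1 on all 20 arrays at once, each group having its own mean. The variance prior had no trend and 3.67 degrees of freedom, beside 16 of the residuals. P-values were adjusted over all 28826 probe sets of a comparison by the method of Benjamini and Hochberg. The procedure was tested on simulated data. A gene of several probe sets was read from the brightest. The 10 genes and all lists were chosen with earlier results of these data known. Beyond the 10, the genes named were, per list and comparison, up to 3 of the smallest P among those that passed, or the 1 of the smallest P if none did, the 5 genes most like the mean of the 10, defining markers, and genes that neighbour a member. S100a7a and Retnla were named as neighbours after their values were seen. The number of arrays limits the precision. Alternatives were other normalisations, a trend with a robust prior, array weights, fewer groups, the replicate number as a block, a filter on dim probe sets and leaving out arrays.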

Additional observations from a re-analysis of the deposited data

Results flagged for a closer look

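Of 40 groups examined, 10 genes in 4 groups of 5 rats, 3 held 1 rat far from the rest, where chance gives about 1 in 20 groups. For Mmp8, WKY CAF rat 3 was at a log2 signal of 10.34, below the other 4 rats at 11.14 to 11.45, a gap of 0.713 of the group's range. For Ltf, WKY STD rat 1 was at 5.62, below the others at 5.81 to 5.86 (0.809 of the range), and LEW STD rat 5 was at 5.52, below the others at 5.71 to 5.78 (0.735 of the range). WKY CAF rat 3 and WKY STD rat 1 were also the lowest of their groups for all 8 genes other than Ltf and Mpo, and the Ltf signals lie under the array median, where a gap of this size is small on the log2 scale.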

How the results depend on the processing

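The number of the 10 genes that passed for WKY against LEW rats on CAF, 4 as reported, was 7 with array weights, where the calls over all probe sets went to 11.1% against 7.58% as reported, 7 with the replicate number as a block (8.14% of all probe sets) and 2 to 6 when 1 rat was left out, with 2 without LEW CAF rat 1 (6.33% of all probe sets). Lcn2, Mmp8 and Mmp9 were the genes gained with array weights and with the block. The cause was not tested. On STD it was 8 in each of the 18 alternatives run, and 0 for the diets and the interaction. The 8 genes other than Ltf and Mpo kept their direction between the strains in all 288 alternative values, of which 4 lost the call and 16 gained it, on CAF. Values that turned, none of which passed, were the log2 difference of Ltf between the strains on CAF, at −0.067 to 0.016 with 1 rat left out and 0.016 without the 4 arrays of high heat shock genes, an alternative chosen after seeing the data, and 3 diet differences. These were Lcn2 in WKY rats, at −0.34 to 0.036 with 1 rat left out, Mmp9 in WKY rats, at −0.036 with array weights, −0.21 to 0.22 with 1 rat left out and −0.21 without the 4 arrays, and Mpo in LEW rats, at −0.055 to 0.044 with 1 rat left out and 0.038 without the 4 arrays. The labels do not say whether the replicate numbers pair the rats. Deviations of same-numbered rats correlated at −0.177 to 0.43 over 20 pairs, with 6 over 0.1. The best match of an array in the compared group bore its own number in 13 of 40 searches. Whether the numbers stand for a shared batch was not tested, and the block changed no other count of the 10. Ltf and Mpo had no value with dim probe sets left out, and the interaction none with fewer groups. Signals near the low end of the range limit what these arrays can show.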
